A study of Mus musculus with 9 samples.

Results

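The mouse integrin and laminin genes were followed through adipogenesis and its block by mizoribine (MIZ), which inhibits IMP dehydrogenase and so the synthesis of guanine nucleotides. Members were all genes with the symbol Itga or Itgb plus a subunit number or letter and all genes with the symbol Lama, Lamb or Lamc plus a number, without binding-protein genes such as Itgb1bp1. There were 38 of them among 32285 gene identifiers, 27 integrin subunit genes and 11 laminin chain genes. RNA was measured in 9 libraries of primary SVF (stromal vascular fraction) cells, the cells of fat other than mature adipocytes, grown from the subcutaneous white adipose tissue of wild-type neonatal mice 4 to 6 days old. The undifferentiated group was confluent cells without induction (3 libraries). The vehicle group was differentiated for 6 days with DMSO (3 libraries), and the MIZ group was differentiated for 6 days with MIZ (3 libraries). Both differentiated groups received insulin, dexamethasone and IBMX and then insulin, troglitazone, rosiglitazone and triiodothyronine. Cells of individual animals were plated separately, but the labels do not say which libraries share an animal, and they give no dose of MIZ.

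Integrins are receptors made of 1 alpha and 1 beta chain that span the plasma membrane and tie the extracellular matrix to the actin cytoskeleton. Laminins are trimers of 1 alpha, 1 beta and 1 gamma chain that polymerize into the basement membrane, the sheet of matrix that surrounds every mature fat cell. Preadipocytes lie in a fibronectin- and collagen-rich matrix, and a change from fibronectin-binding to laminin-binding integrins is known to accompany adipogenesis.

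Total counts were 42217231 to 55288455 per undifferentiated library, 28760721 to 50262228 per vehicle library and 33504937 to 43281818 per MIZ library. Levels are given as CPM, counts scaled to the same library total after TMM normalization. Differences come from edgeR's quasi-likelihood test on all 9 libraries. Adjusted p-values are Benjamini-Hochberg values over the 17173 genes tested, and those under 0.05 passed. Of the 38 members, 36 passed the filter of at least 5 counts in at least 3 libraries. Itgb2l, a beta2-like leukocyte chain, had 0 counts in all 9 libraries, and Itgb6, an epithelial chain that pairs with the alphav chain, was at or below 0.045 CPM in every library. The 8 adipocyte markers (among them Adipoq, Plin1 and Fabp4) summed to 78.2 to 79.9 CPM in undifferentiated, 14420.0 to 15210.0 CPM in vehicle and 1012.0 to 1262.0 CPM in MIZ libraries, and the 9 preadipocyte and stromal markers summed to 1912.0 to 2094.0, 591 to 625 and 1595.0 to 1812.0 CPM. The labels name the cells primary adipocytes in all groups, while Cidec and Lep had 0 counts in undifferentiated cells. Lep also had 0 counts with MIZ. In bulk RNA, fewer cells of a type and less RNA per cell cannot be told apart.

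MIZ raised 14 members and lowered 12 relative to vehicle, and 10 did not pass the test. Over all genes tested 35.9% were higher and 35.1% lower, so the share of members called in either direction was close to that of other genes. Changes over 2-fold were called for 9 members higher and 8 lower, where 33.1% of all genes changed over 2-fold in either direction. All MIZ libraries lay on one side of all vehicle libraries for 27 of the 36 members, against 72.8% of all genes. The median log2 fold change was 0.33 over the members and 0.02 over all genes. Of 25 integrin genes tested 11 were higher and 6 lower with a median of 0.35. Of 11 laminin genes 3 were higher and 6 lower with a median of -0.38.

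**Figure D1:**
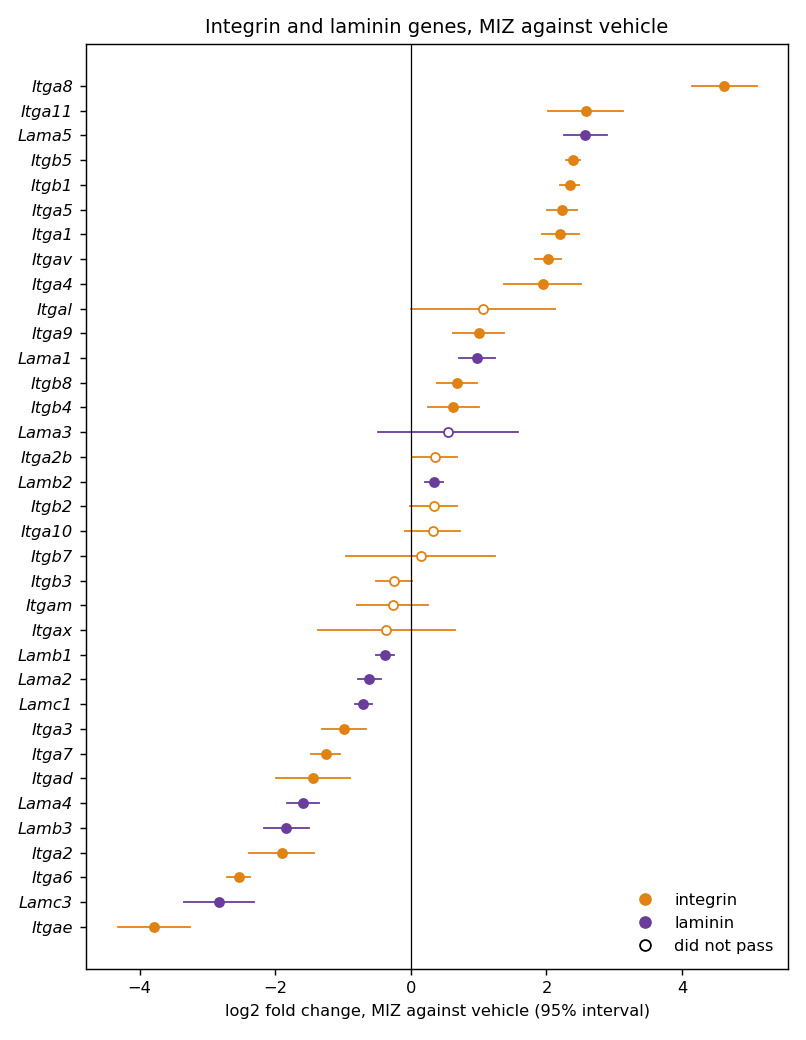
Log2 fold change of MIZ against vehicle (x axis) for the integrin (orange) and laminin (purple) genes that passed the filter, 1 of them not shown, with 95% intervals from edgeR's quasi-likelihood fit as bars. Filled points passed the test (adjusted p under 0.05), 14 above 0 and 12 below 0. Itga8 stands at 4.62, and Itgae, at low counts, stands at -3.79.

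Of the 4 alpha genes for fibronectin, vitronectin and other ligands with an RGD motif, 3 rose with MIZ relative to vehicle. Over all genes tested 35.9% were higher. Itga5, whose chain pairs with the beta1 chain as the classical fibronectin receptor, measured 122, 116 and 122 CPM in the undifferentiated libraries, 134, 138 and 117 CPM with vehicle and 555, 558 and 706 CPM with MIZ. The undifferentiated and vehicle libraries overlapped, and all MIZ libraries lay far above them. The rise over vehicle was 4.68-fold (log2 fold change 2.23, SE 0.098, adjusted p = 4.71e-09), and vehicle differed from undifferentiated cells by 0.11 (adjusted p = 0.303). Itgav, the chain shared by the vitronectin receptors, measured 358, 369 and 359 CPM in undifferentiated cells, 179, 175 and 148 CPM with vehicle and 614, 675 and 744 CPM with MIZ. Vehicle libraries were the lowest and MIZ libraries the highest, with no overlap between any of the groups. MIZ was 4.05-fold above vehicle (log2 fold change 2.02, SE 0.086, adjusted p = 3.64e-09) and 1.87-fold above undifferentiated cells. Itga8, a receptor chain for nephronectin, fell with differentiation from 35.1, 32.0 and 44.4 CPM to 1.65, 2.06 and 3.65 CPM and stood at 65.8, 57.2 and 64.2 CPM with MIZ. This was the largest change of any member between MIZ and vehicle, 24.6-fold (log2 fold change 4.62, SE 0.22, adjusted p = 7.84e-09). Itga2b, the platelet fibrinogen receptor chain, was at or below 3.89 CPM in all libraries, with a log2 fold change of 0.35 (adjusted p = 0.0504).

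**Figure D2:**
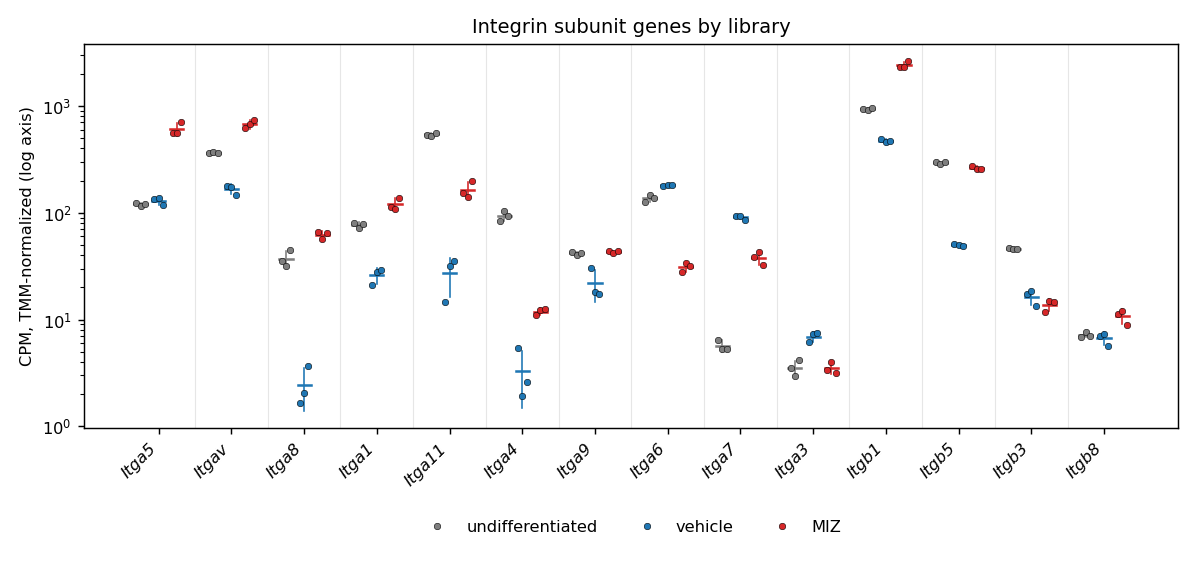
CPM on a log axis of 14 integrin genes in each library (points), with the mean (bar) and SD (line) of the 3 undifferentiated (grey), vehicle (blue) and MIZ (red) libraries. MIZ libraries of Itga5, Itgav and Itgb1 lie above both other groups, and those of Itga6 lie below both.

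Of the 5 tested beta genes outside the leukocyte class, Itgb1, Itgb5, Itgb8 and Itgb4 rose with MIZ relative to vehicle. Over all genes tested 35.9% were higher. Itgb1, the partner of most alpha chains in the list, reached 941, 911 and 955 CPM in the undifferentiated libraries, 494, 460.0 and 466 CPM with vehicle and 2290.0, 2320.0 and 2604 CPM with MIZ. The groups did not overlap, and MIZ was 5.08-fold above vehicle (log2 fold change 2.34, SE 0.064, adjusted p = 1.35e-10) and 2.57-fold above undifferentiated cells. Itgb5, which joins the alphav chain in a vitronectin receptor, was at 299, 286 and 295 CPM, 51.1, 49.5 and 48.8 CPM and 275, 256 and 254 CPM in the same order. Its fall with differentiation was 5.89-fold, and with MIZ it stayed within 1.12-fold of the undifferentiated level, slightly but significantly below it (log2 fold change -0.17, SE 0.045, adjusted p = 0.00709). Itgb8, whose receptor releases active TGF-beta, rose from 7.09, 7.34 and 5.67 CPM with vehicle to 11.3, 12.0 and 8.81 CPM with MIZ (log2 fold change 0.69, SE 0.13, adjusted p = 0.000778). Itgb4, the partner of the alpha6 chain in hemidesmosomes, was at or below 4.11 CPM in every library (log2 fold change 0.62, SE 0.17, adjusted p = 0.00673). Itgb3, the other vitronectin receptor beta chain, fell from 46.8, 45.6 and 45.9 CPM to 17.2, 18.4 and 13.5 CPM with vehicle, and MIZ libraries at 11.8, 14.9 and 14.7 CPM did not pass against vehicle (log2 fold change -0.25, SE 0.12, adjusted p = 0.0818).

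The promoters of the fibronectin and vitronectin receptor genes Itga5, Itgav and Itgb1 are shown with that of Lamb1. This sets side by side members that moved in opposite directions relative to vehicle: with MIZ the receptor genes were higher and Lamb1 lower. Relative to undifferentiated cells all of these genes were higher with MIZ (log2 fold changes 2.34, 0.90, 1.36 and 0.92 in this order). They were chosen, after their values were seen, among members whose promoter is in the RefSeq table and holds a GC box. Each line runs from 250 bases before to 50 bases after a RefSeq start on GRCm38.p6, read 5′ to 3′ on the gene's own strand, with GC boxes (GGGCGG on either strand, the motif known for Sp1) in capitals. Itga5 is at chr15:103366742-103367041 on the minus strand, Itgav at chr2:83724147-83724446, Itgb1 at chr8:128685404-128685703 and Lamb1 at chr12:31265043-31265342, the last 3 on the plus strand.
Itga5: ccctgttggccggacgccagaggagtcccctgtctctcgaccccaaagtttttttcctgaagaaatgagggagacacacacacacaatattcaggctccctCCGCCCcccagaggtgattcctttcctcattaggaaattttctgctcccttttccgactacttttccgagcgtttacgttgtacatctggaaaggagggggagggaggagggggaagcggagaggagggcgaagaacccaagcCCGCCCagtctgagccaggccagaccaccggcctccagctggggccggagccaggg
Itgav: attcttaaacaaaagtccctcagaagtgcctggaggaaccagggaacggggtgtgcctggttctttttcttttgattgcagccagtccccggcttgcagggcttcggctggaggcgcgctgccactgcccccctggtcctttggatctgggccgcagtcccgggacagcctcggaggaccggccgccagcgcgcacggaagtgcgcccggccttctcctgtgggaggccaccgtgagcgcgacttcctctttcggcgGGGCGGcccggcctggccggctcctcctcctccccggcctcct
Itgb1: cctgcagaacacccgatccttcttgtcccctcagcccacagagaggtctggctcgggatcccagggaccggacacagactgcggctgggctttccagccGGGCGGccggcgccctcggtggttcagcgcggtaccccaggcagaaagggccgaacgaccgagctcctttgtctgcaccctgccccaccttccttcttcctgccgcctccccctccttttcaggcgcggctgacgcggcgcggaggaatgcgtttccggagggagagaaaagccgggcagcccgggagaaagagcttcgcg
Lamb1: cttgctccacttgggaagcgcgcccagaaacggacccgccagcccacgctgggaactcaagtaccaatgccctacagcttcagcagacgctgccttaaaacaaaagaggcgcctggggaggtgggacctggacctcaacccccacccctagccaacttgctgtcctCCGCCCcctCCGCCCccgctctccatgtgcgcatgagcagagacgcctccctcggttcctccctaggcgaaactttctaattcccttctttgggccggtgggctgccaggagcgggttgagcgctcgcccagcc
The windows of Itga5 and Lamb1 hold 2 GC boxes each and those of Itgav and Itgb1 hold 1 each. A promoter was found for 24 of the 38 members, with 27 windows in all. A GC box stood in 12 of the 27 (44.4%), against 35.7% of all 32851 windows of this length. The AP-1 motif TGANTCA stood in 3 of 27 (11.1% against 7.81%), the M-CAT motif CATTCC in 3 (11.1% against 14.7%) and the CArG box in 2 (7.41% against 1.63%), all searched on both strands. A direct repeat of AGGTCA with 1 base between the copies stood in 0 of the 27 windows and in 0.0396% of all windows. Motifs were counted independently of each other, so that matches may overlap, and a match describes letters only.

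Relative to vehicle, the laminin-binding integrin alpha genes moved with MIZ in the opposite direction to Itga5. The beta genes Itgb1 and Itgb4, given above as partners of most alpha chains and of the alpha6 chain, rose (log2 fold changes 2.34 and 0.62). Itga6, the alpha chain of the best known laminin receptors, measured 126, 146 and 137 CPM in undifferentiated cells, 179, 184 and 181 CPM with vehicle and 27.9, 34.0 and 31.5 CPM with MIZ. All vehicle libraries were above the undifferentiated ones, and all MIZ libraries were below both groups. MIZ was 5.82-fold below vehicle (log2 fold change -2.54, SE 0.077, adjusted p = 2.61e-10) and 4.37-fold below undifferentiated cells (adjusted p = 2.94e-09). Itga7, the laminin receptor chain best known from muscle, rose with differentiation from 6.48, 5.26 and 5.34 CPM to 93.6, 93.1 and 86.2 CPM. With MIZ it reached 38.9, 42.9 and 32.3 CPM, between the other groups without overlap, 2.39-fold below vehicle (log2 fold change -1.26, SE 0.098, adjusted p = 5.53e-07) and 6.70-fold above undifferentiated cells. Itga3, a laminin receptor chain of epithelia, was low in every group, with 3.52, 2.99 and 4.15 CPM in undifferentiated, 6.11, 7.25 and 7.41 CPM in vehicle and 3.40, 3.96 and 3.16 CPM in MIZ libraries. Its rise with vehicle was 1.95-fold, and MIZ libraries overlapped the undifferentiated ones. All 3 laminin-binding alpha genes were higher with vehicle than undifferentiated, against 36.2% of all genes. All 3 were lower with MIZ than with vehicle, against 35.1% of all genes.

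The ratio of Itga6 to Itga5 counts within a library set the laminin receptor chain against the fibronectin receptor chain independently of library size. On the log2 scale it was 0.04, 0.33 and 0.16 in undifferentiated, 0.42, 0.41 and 0.63 in vehicle and -4.31, -4.03 and -4.49 in MIZ libraries. The vehicle ratios lay just above the undifferentiated ones, and the MIZ ratios lay far below both. The mean difference between MIZ and vehicle was -4.77 on the log2 scale, and that between vehicle and undifferentiated cells was 0.31. In the exact two-sided permutation test each of these gave p = 0.1, the smallest that 3 libraries against 3 allow, with 0.1 after adjustment over the 6 ratio tests. The MIZ and vehicle libraries also differed in adipocyte markers (given above) and in the 8 smooth muscle and pericyte markers, which summed to 240 to 275 CPM with vehicle and 6688.0 to 8763.0 CPM with MIZ, against 790 to 936 CPM in undifferentiated cells. Of these 8, all were at 1 CPM or more with MIZ and 7 with vehicle, and Acta2 was at 3334, 3154 and 4379 CPM with MIZ and 32.2, 27.8 and 43.8 CPM with vehicle. The part of these cell states in the integrin differences was not tested.

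**Figure D3:**
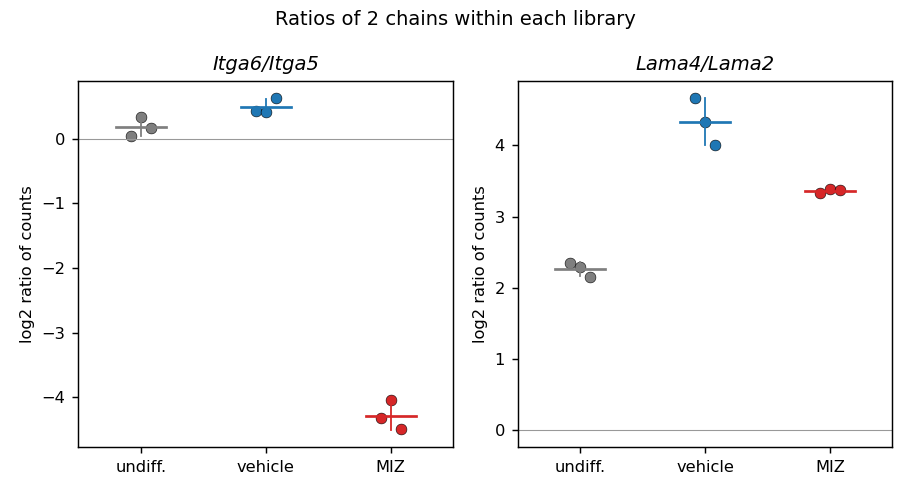
Log2 ratio of counts of Itga6 to Itga5 (left) and of Lama4 to Lama2 (right) in each of the 9 libraries (points), with the mean (bar) and SD (line) of each group of 3. The Itga6 to Itga5 ratio lies between -4.49 and -4.03 with MIZ and between 0.04 and 0.63 in the other groups. The Lama4 to Lama2 ratio is lowest in undifferentiated and highest in vehicle libraries.

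The collagen receptor genes split. Itga11, the fibrillar collagen receptor chain of fibroblasts, measured 538, 526 and 555 CPM in undifferentiated cells, 14.7, 31.6 and 35.0 CPM with vehicle and 154, 140.1 and 198 CPM with MIZ. The groups did not overlap: the vehicle level was 19.6-fold below the undifferentiated one (log2 fold change -4.30, SE 0.26, adjusted p = 5.25e-08), and MIZ was 5.97-fold above vehicle but still 3.29-fold below undifferentiated cells. Itga1, a receptor chain for collagen IV of basement membranes, was at 79.3, 71.3 and 79.1 CPM, 21.0, 27.7 and 29.1 CPM and 114, 109 and 138 CPM in the same order. Here MIZ libraries were the highest, 4.61-fold above vehicle (log2 fold change 2.20, SE 0.12, adjusted p = 3.22e-08) and 1.57-fold above undifferentiated cells. Itga2, a collagen I receptor chain of platelets and epithelia, went the other way at low levels. It rose from 1.77, 1.93 and 2.06 CPM to 10.1, 9.31 and 5.54 CPM with vehicle, and at 1.95, 2.17 and 2.51 CPM with MIZ it differed from undifferentiated cells by a log2 fold change of 0.19 (adjusted p = 0.498). Itga10, the chondrocyte collagen receptor chain, was at or below 2.58 CPM in every library and passed no comparison.

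Itga4, which binds VCAM-1 and fibronectin on leukocytes and mesenchymal cells, measured 83.2, 105 and 93.3 CPM in undifferentiated cells, 5.36, 1.93 and 2.62 CPM with vehicle and 11.0, 12.2 and 12.5 CPM with MIZ. The fall with vehicle was 30.4-fold (log2 fold change -4.93, SE 0.25, adjusted p = 9.23e-09), and MIZ, although 3.85-fold above vehicle, was 7.89-fold below undifferentiated cells. Itga9, a receptor chain for tenascin C, was at 43.1, 40.6 and 42.4 CPM in undifferentiated, 30.4, 18.0 and 17.2 CPM in vehicle and 43.8, 41.6 and 43.7 CPM in MIZ libraries. MIZ libraries overlapped the undifferentiated ones, and all vehicle libraries were below both. Part of the exons of Itga4, Itga7, Itga8 and Itgav overlaps a gene on the other strand, and the overlapping genes together had few counts (at most 169 for any of them, against 13054 or more for each of these members). Genes opposite to Lama2, Lama3 and Lamc3 had at most 2 counts.

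Among the leukocyte integrins Itgb2, Itgam and Itgax were highest in undifferentiated cells. Itgb2, the beta chain of this class, measured 132, 136 and 133 CPM in undifferentiated cells, 35.9, 23.5 and 23.1 CPM with vehicle and 39.2, 35.0 and 28.6 CPM with MIZ. Itgam, which makes the macrophage and granulocyte receptor Mac-1 with it, was at 176, 189 and 182 CPM, 111, 61.0 and 49.4 CPM and 66.9, 63.5 and 51.7 CPM. For both genes all 3 undifferentiated libraries were above all others, vehicle replicate 1 was the highest of the vehicle libraries, and MIZ overlapped vehicle (Itgb2 log2 fold change 0.33, SE 0.16, adjusted p = 0.08). Itgal, the alpha chain of LFA-1, was at 12.2, 13.7 and 15.1 CPM, 31.0, 7.88 and 6.03 CPM and 36.0, 30.8 and 22.4 CPM. Vehicle replicate 1 lay among the MIZ libraries and the other vehicle libraries lay below the undifferentiated ones, and Itgal did not pass in any of the 3 comparisons (log2 fold change 1.06, SE 0.48, adjusted p = 0.0684 for MIZ against vehicle). With no filter on low counts, Itgal passed between MIZ and vehicle (1.05, adjusted p = 0.0349) and between MIZ and undifferentiated cells (1.11, adjusted p = 0.0264). Without vehicle replicate 1 the log2 fold change of MIZ against vehicle was 2.09 (adjusted p = 5.17e-07) for Itgal and 0.55 (adjusted p = 0.000277) for Itgb2, and that of vehicle against undifferentiated cells was -0.97 (adjusted p = 0.000465) for Itgal. The 11 myeloid markers, all at 1 CPM or more in every group, summed to 5770.0 to 5940.0 CPM in undifferentiated cells, 962 CPM in vehicle replicate 1, 546 to 618 CPM in the other vehicle libraries and 1037.0 to 1416.0 CPM with MIZ. Of these, Adgre1, the macrophage marker F4/80, was at 220.2, 246 and 223 CPM, 269.8, 145 and 157 CPM and 470.2, 409 and 318 CPM. It was highest with MIZ, and vehicle replicate 1 was above the other vehicle libraries. Other myeloid markers went the other way: Csf1r was at 362, 404 and 369.6 CPM in undifferentiated, 95.2, 53.5 and 58.8 CPM in vehicle and 60.4, 54.3 and 51.0 CPM in MIZ libraries. Likewise Cd68 was at 302 to 333 CPM in undifferentiated and 35.4 to 42.0 CPM in MIZ libraries, and Ptprc at 128 to 156 and 25.7 to 26.5 CPM, and for these 3 genes the MIZ and vehicle ranges overlapped. The part of these cells in the integrin values was not tested.

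Of the rarer leukocyte chains, Itgax, known from dendritic cells, fell from 1.82, 1.86 and 1.72 CPM to at most 0.15 CPM with vehicle and 0.163 CPM with MIZ. Itgae, which binds E-cadherin, was at 0.136, 0.112 and 0.171 CPM in undifferentiated, 3.11, 3.95 and 2.80 CPM in vehicle and 0.181, 0.272 and 0.266 CPM in MIZ libraries, and its vehicle level was 13.8-fold above that with MIZ (log2 fold change -3.79, SE 0.24, adjusted p = 1.06e-07). Itgb7, the partner of Itgae in lymphocytes, was at or below 0.239 CPM and passed no comparison, and the T cell marker Cd3e had 0 counts in all libraries. The 9 lymphoid markers summed to 3.16 to 4.41 CPM in undifferentiated, 6.00 to 8.63 CPM in vehicle and 0.950 to 1.80 CPM in MIZ libraries, and the 6 mast cell markers to 0.360 to 0.683, 1.20 to 1.51 and 0 to 0.384 CPM. Of the 9 lymphoid markers 1 was at 1 CPM or more in each group, and of the 6 mast cell markers 1 with vehicle and 0 in the other groups. Few genes therefore carry these sums. Both sums, like Itgae, were highest with vehicle, and their part in the Itgae values was not tested. Itgad, a further partner of the beta2 chain, had 0 counts in undifferentiated cells, 8.36, 12.8 and 13.7 CPM with vehicle and 3.01, 4.70 and 5.35 CPM with MIZ. Against a floor of 3 counts over the undifferentiated group, Itgad was at least 597-fold higher with vehicle and at least 208-fold higher with MIZ, and MIZ was 2.72-fold below vehicle (log2 fold change -1.44, SE 0.24, adjusted p = 0.000571). Its exons share 70 bp with Cox6a2, a muscle-type subunit of cytochrome c oxidase on the other strand, which was at 1.73, 1.77 and 2.08 CPM, 13.9, 15.5 and 16.3 CPM and 3.17, 3.01 and 3.81 CPM in the 3 groups. The strand setting of the counts is not given, and the part of Cox6a2 reads in the Itgad counts was not tested.

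The laminin chains that make up most laminin RNA here, Lama4, Lamb1 and Lamc1, rose with differentiation and were lower with MIZ than with vehicle. Lama4, the main alpha chain of fat and blood vessel basement membranes, measured 392, 369 and 369.9 CPM in undifferentiated cells, 1662, 1316 and 1193 CPM with vehicle and 498, 453 and 433 CPM with MIZ. The rise with vehicle was 3.69-fold (log2 fold change 1.88, SE 0.11, adjusted p = 3.08e-08), and MIZ was 3.01-fold below vehicle (log2 fold change -1.59, SE 0.11, adjusted p = 1.71e-07). Against undifferentiated cells MIZ was higher by only 0.29 on the log2 scale (adjusted p = 0.0315). This call was lost without undifferentiated replicate 1, 2 or 3 or MIZ replicate 1 or 2 (log2 fold changes 0.23 to 0.32, adjusted p 0.0507 to 0.112) and with scaling by library size only (0.25, adjusted p = 0.053). Lamb1, the common beta chain, was at 620.2, 575 and 566 CPM, 1516, 1454 and 1353 CPM and 1134, 1083 and 1109 CPM in undifferentiated, vehicle and MIZ libraries. Lamc1, the gamma chain of nearly all laminins, was at 435, 409.5 and 431 CPM, 1105, 1222 and 1225 CPM and 756, 709 and 718 CPM. Both genes were between the other groups with MIZ and did not overlap them, 1.30-fold (log2 fold change -0.38, SE 0.058, adjusted p = 0.00014) and 1.63-fold (log2 fold change -0.70, SE 0.056, adjusted p = 6.66e-07) below vehicle. Lamb1 and Lamc1 were also higher with MIZ than in undifferentiated cells, by log2 fold changes of 0.92 and 0.77.

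**Figure D4:**
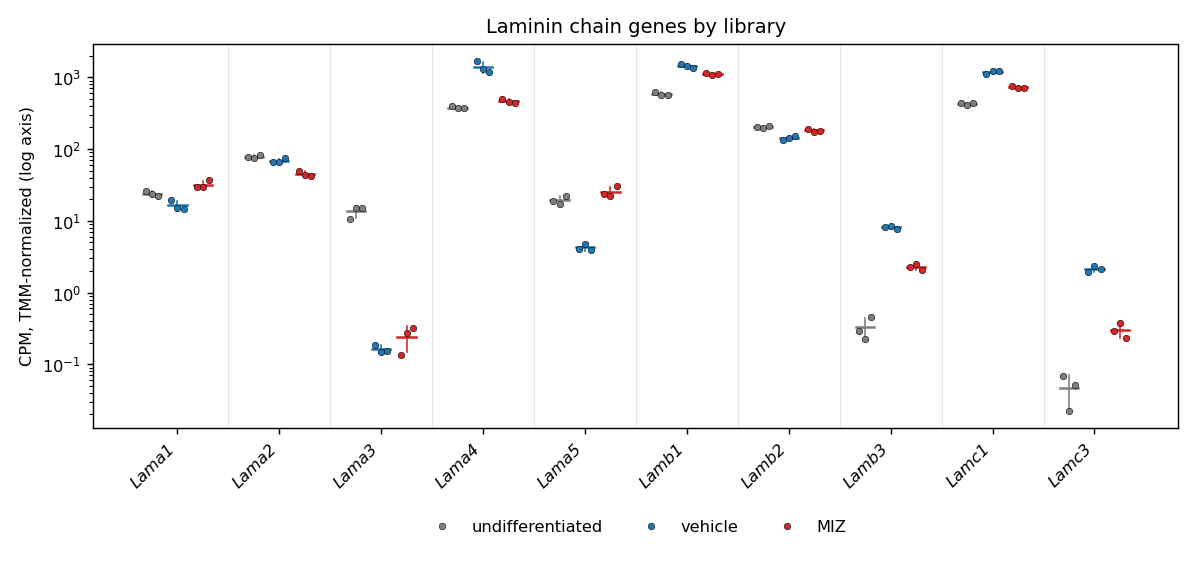
CPM on a log axis of 10 of the 11 laminin chain genes in each library (points), with the mean (bar) and SD (line) of the 3 undifferentiated (grey), vehicle (blue) and MIZ (red) libraries. Vehicle libraries are the highest for Lama4, Lamb1 and Lamc1, and MIZ libraries are the lowest for Lama2.

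The other alpha chains did not follow Lama4. Lama5, the broadest laminin alpha chain of adult tissue, fell from 19.1, 17.4 and 22.4 CPM to 4.01, 4.81 and 3.98 CPM with vehicle and was at 24.0, 22.3 and 30.2 CPM with MIZ, 5.94-fold above vehicle (log2 fold change 2.57, SE 0.14, adjusted p = 3.41e-08). The MIZ and undifferentiated libraries of Lama5 overlapped, and the call between them (log2 fold change 0.37, SE 0.13, adjusted p = 0.0213) was lost without undifferentiated replicate 1 or 2 or MIZ replicate 3 (0.23 to 0.36, adjusted p 0.0653 to 0.106). Lama1, the chain of the earliest embryonic basement membranes, was at 25.9, 23.3 and 22.1 CPM, 19.2, 15.2 and 14.7 CPM and 29.1, 29.8 and 37.0 CPM, with MIZ 1.96-fold above vehicle. Lama2, the main chain of muscle and nerve basement membranes, was at 77.1, 75.4 and 82.9 CPM, 65.3, 65.9 and 74.2 CPM and 49.4, 43.1 and 42.0 CPM. Its MIZ libraries were below all others, 1.53-fold below vehicle (log2 fold change -0.61, SE 0.074, adjusted p = 2.15e-05), while the smaller fall with vehicle (log2 fold change -0.20, SE 0.073, adjusted p = 0.0285) was lost without undifferentiated replicate 3 or vehicle replicate 1 or 2 and with DESeq2, median-ratio scaling or only the 6 libraries compared (-0.16 to -0.14, adjusted p 0.0714 to 0.113). Lama3, of epithelial anchoring laminin, was at 10.7, 15.2 and 15.0 CPM in undifferentiated cells and at most 0.188 CPM with vehicle and 0.325 CPM with MIZ. Lamb3, the beta chain of that laminin, went the other way: it rose from 0.295, 0.225 and 0.461 CPM to 8.25, 8.43 and 7.67 CPM with vehicle and was at 2.24, 2.50 and 2.07 CPM with MIZ. The 9 epithelial and mesothelial markers summed to at most 16.6 CPM in any library.

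Lamb2, the beta chain of synapses and kidney glomeruli, fell 1.41-fold with vehicle, from 201, 195 and 207 CPM to 132, 143 and 154 CPM, and was at 191, 172 and 181 CPM with MIZ. MIZ was 1.27-fold above vehicle (log2 fold change 0.34, SE 0.061, adjusted p = 0.000407) and did not pass against undifferentiated cells (log2 fold change -0.15, SE 0.06, adjusted p = 0.0506). Lamc3, a gamma chain of brain and skin, rose from at most 0.0682 CPM to 1.95, 2.38 and 2.16 CPM with vehicle and was at 0.294, 0.380 and 0.236 CPM with MIZ, 7.08-fold below vehicle. The log2 ratio of Lama4 to Lama2 counts was 2.35, 2.29 and 2.16 in undifferentiated, 4.67, 4.32 and 4.01 in vehicle and 3.33, 3.39 and 3.37 in MIZ libraries. The 3 groups did not overlap, with vehicle the highest and MIZ between. MIZ lay -0.97 from vehicle and 1.10 from undifferentiated cells in the mean log2 ratio, each with p = 0.1 in the exact two-sided permutation test, the smallest possible here, and 0.1 after adjustment.

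Levels of different genes were compared per kb of annotated exon. Summed over the integrin alpha genes, the level was 241 ± 4.12 CPM per kb in undifferentiated, 107 ± 9.76 with vehicle and 267 ± 26.9 with MIZ (mean ± SD, n = 3). The integrin beta genes summed to 365 ± 6.64, 143 ± 7.25 and 678 ± 38.8 CPM per kb. For both sums, vehicle libraries were below all others. The laminin alpha genes summed to 41.5 ± 1.02, 122 ± 20.1 and 46.5 ± 2.50 CPM per kb in the same order, the beta genes to 92.3 ± 2.93, 170.1 ± 6.60 and 142.0 ± 4.06, and the gamma genes to 51.5 ± 1.71, 145 ± 8.56 and 88.8 ± 3.11. In every laminin sum the vehicle libraries were the highest.

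Per kb of exon, the leading integrin alpha gene was not the same in undifferentiated and differentiated cells. Itga11 made up 43.6% ± 0.81 of the integrin alpha sum before induction, 5.08% ± 2.37 with vehicle and 11.9% ± 1.08 with MIZ. Itga5 made up 10.1% ± 0.31, 24.7% ± 1.42 and 45.9% ± 1.83 in the same order, and was the leading alpha gene of both differentiated groups per length. Per length, Itga6 was next in vehicle cells at 18.9% ± 1.82, against 6.25% ± 0.44 in undifferentiated cells and 1.30% ± 0.17 with MIZ. Itgb1 led the beta genes throughout, with 62.9% ± 0.41, 81.4% ± 1.14 and 86.9% ± 1.32. Itgb5 followed with 22.6% ± 0.22 before induction, 9.83% ± 0.28 with vehicle and 10.9% ± 0.96 with MIZ. Among the laminin alpha genes Lama4 led in every group, at 75.3% ± 1.15, 94.8% ± 0.84 and 82.1% ± 2.00. Lamb1 made up 64.1% ± 1.42, 85.4% ± 1.59 and 78.8% ± 0.47 of the beta sum, with Lamb2 nearly all of the rest, and Lamc1 made up 99.8%, 99.0% and 99.0% of the gamma sum. The order depends on the division by exon length: by CPM alone Itga6 (23.6%) and Itgav (21.6%) were above Itga5 (16.8%) with vehicle, and Itgav (36.4%) was above Itga5 (32.5%) with MIZ. Shares are of RNA, not of assembled receptors or trimers.

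**Figure D5:**
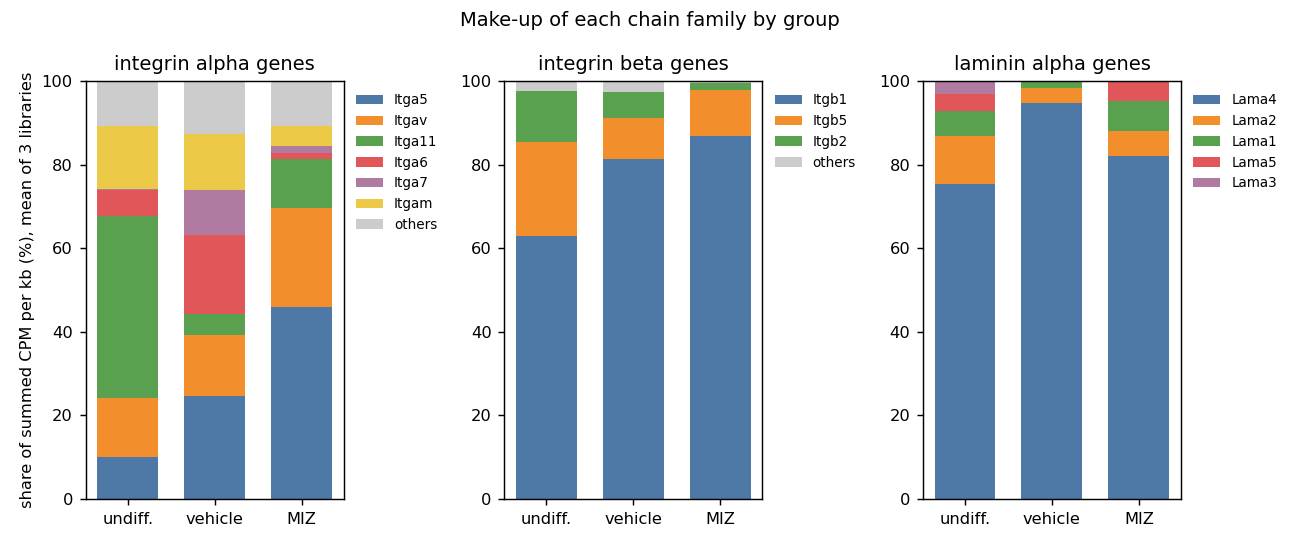
Share of the summed CPM per kb (%) that each gene makes up in the integrin alpha, integrin beta and laminin alpha families, as the mean of the 3 libraries of each group, in stacked bars from 0 to 100. Itga11 takes 43.6% of the alpha sum in undifferentiated cells, Itga5 takes 45.9% with MIZ, and Lama4 leads in all groups.

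Relative to undifferentiated cells, vehicle raised 12 of 36 members and lowered 19, against 36.2% and 41.5% of all genes, with a median log2 fold change of -0.46 (-0.08 over all genes). Changes over 2-fold were called for 10 members higher and 13 lower, where 41.2% of all genes passed this limit. Of 25 integrin genes, 6 rose and 14 fell, with a median of -0.96. All 11 laminin genes changed, 6 up and 5 down, and their median was 1.30. In the comparison of MIZ with undifferentiated cells, 16 members were higher and 12 lower (33.7% and 33.3% of all genes), 7 and 8 of them over 2-fold (26.4% of all genes), and the median was 0.24 (-0.0012 over all genes). The medians stay the same with Itgad at its lower bound, since it is the highest fold in both comparisons with undifferentiated cells. The comparisons share libraries, so their calls are not independent.

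Several members are neighbours in the genome (GRCm38), which the choice of members did not use. Itgam (chr7:128062640-128118491), Itgax (chr7:128129547-128150657) and Itgad (chr7:128154376-128223816) lie side by side on the plus strand, with Itgal (chr7:127296260-127335138) before them on the same chromosome and strand. Itgam and Itgax fell with differentiation, while their neighbour Itgad had no count before it. Itga2 (chr13:114833081-114932100) and Itga1 (chr13:114953096-115101964) lie close together on the minus strand and were called in opposite directions both between vehicle and undifferentiated cells and between MIZ and vehicle.

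Read across the 3 groups, MIZ was called above both others for 8 of 36 members, against 15.1% of all genes. These were Itga1, Itga5, Itga8, Itgav, Itgb1, Itgb8, Lama1 and Lama5, receptor chains for RGD ligands and collagen IV together with the alpha chains of embryonic and adult basement membranes. The Lama5 call against undifferentiated cells, where libraries overlapped, was lost without undifferentiated replicate 1 or 2 or MIZ replicate 3. MIZ was below both for Itga6 and Lama2 (12.4% of all genes). It lay between the others with vehicle highest for 7 members (12.1% of all genes): Itga7, Itgad, Lama4, Lamb1, Lamb3, Lamc1 and Lamc3. It lay between with undifferentiated highest for Itga11, Itga4, Itgb4 and Itgb5 (10.6% of all genes). A further 6 members fell in both differentiated groups with no call between them (Itga2b, Itgam, Itgax, Itgb2, Itgb3 and Lama3), against 9.34% of all genes. Itga2, Itga3 and Itgae rose (9.71% of all genes), and Itga9 and Lamb2 fell (9.17%), with vehicle and did not pass between MIZ and undifferentiated cells. Itga10, Itgal and Itgb7 were in no class (16.0% of all genes).

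Genes that work with integrins were also counted, in lists drawn up with results of these data known. Of 25 integrin activators and adaptors tested, 18 were higher and 4 lower with MIZ than with vehicle, with a median log2 fold change of 0.45 (over all genes 35.9% were higher and 35.1% lower, with a median of 0.02). Lims2, a LIM protein of the complex that links beta chains to actin, rose from 6.55 ± 1.80 to 40.2 ± 0.95 CPM (log2 fold change 2.59, SE 0.15). Tln2, a talin that activates integrins, was higher with MIZ than with vehicle by 1.98 and Bcar1, the focal adhesion scaffold p130Cas, by 1.70 on the log2 scale. Tln2 had fallen with vehicle from 139 ± 5.15 to 39.8 ± 3.13 CPM, and Bcar1 from 50.3 ± 0.92 to 39.8 ± 0.65 CPM. Against undifferentiated cells MIZ was higher by 0.18 for Tln2 and by 1.36 for Bcar1. The kinase gene Ptk2b fell by 1.19, Parvg, a parvin of blood cells, by 0.91 and Itgb3bp, which encodes a protein first found by its binding to the beta3 chain, by 0.58. Parvg was low in both differentiated groups, at 1.57 ± 0.39 CPM with vehicle and 0.83 ± 0.26 with MIZ. In undifferentiated cells it was at 18.2 ± 1.19 CPM. Of 6 tetraspanins that associate with laminin-binding integrins, 4 were higher and 1 lower (35.9% and 35.1% of all genes), with a median of 0.74: Cd81 (1.31), Tspan4 (0.93) and Cd63 (0.82) rose, while Cd151, the closest partner of the alpha3, alpha6 and alpha7 chains, fell by 0.31, from 145 ± 8.40 to 117 ± 3.28 CPM. Cd151 had risen with vehicle from 44.1 ± 2.71 CPM, as Itga6 and Itga7 had.

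Among 7 genes tested for other laminin receptors or partners of such receptors, 4 were higher and 3 lower with MIZ than with vehicle (35.9% and 35.1% of all genes). Their median was 0.54 (0.02 over all genes). Bcam, the Lutheran receptor of the laminin alpha5 chain, rose from 1.43 ± 0.13 to 12.0 ± 1.92 CPM (log2 fold change 3.06, SE 0.16), in the same direction as Lama5. Sgce was higher with MIZ than with vehicle by a log2 fold change of 1.31 and Sspn by 0.97. Sspn had fallen with vehicle from 48.5 ± 1.62 to 21.7 ± 0.63 CPM. At 42.4 ± 2.5 CPM with MIZ, Sspn was below undifferentiated cells (log2 fold change -0.19, adjusted p = 0.00876). Dag1, the dystroglycan that anchors laminin to dystrophin, was at 216 ± 7.83 CPM in undifferentiated, 435 ± 14.8 with vehicle and 304 ± 11.5 with MIZ, lower with MIZ than with vehicle by -0.52 (SE 0.049). Its partners Sgcd and Sgcb were also lower with MIZ, by -2.02 and -0.28. All 3 sarcoglycan genes, Sgce, Sgcd and Sgcb, encode partners of dystroglycan, and Sgce went in the opposite direction to the others.

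Of 18 basement membrane partners of laminin, 12 were higher and 4 lower with MIZ than with vehicle (35.9% and 35.1% of all genes), with a median of 0.56 (0.02 over all genes). Ntn4, a netrin that disrupts laminin networks, rose from 0.846 ± 0.356 to 27.6 ± 1.09 CPM (log2 fold change 4.96, SE 0.19). Col4a5 was higher with MIZ than with vehicle by 2.68 and Pxdn, the peroxidase that cross-links collagen IV, by 1.97. Both had fallen with vehicle, Col4a5 from 99 ± 2.5 to 23.1 ± 3.12 CPM and Pxdn from 255 ± 6.51 to 66.1 ± 1.82 CPM. With MIZ Col4a5 was above undifferentiated cells by 0.59, and Pxdn did not pass against them (log2 fold change 0.03, adjusted p = 0.731). Col15a1, a collagen that bridges the basement membrane and the matrix beneath it, averaged 80.7 ± 3.44 CPM in the undifferentiated libraries, 1362 ± 287 with vehicle and 157 ± 47.6 with MIZ (log2 fold change of MIZ against vehicle -3.11, SE 0.21). Smoc1 fell by 2.69 and Nid2, a nidogen that links laminin to collagen IV, by 0.36. Of 22 other integrin ligands tested, 14 were higher and 5 lower (35.9% and 35.1% of all genes), with a median of 0.99 (0.02 over all genes). Fbln5, Npnt and Tnc, which encode ligands of RGD-binding and related integrins, were higher with MIZ than with vehicle by 3.71, 3.42 and 2.37. Npnt, the ligand of Itga8, went from 3.83 ± 0.73 to 41.4 ± 4.38 CPM, against 6.4 ± 0.46 in undifferentiated cells. Tnc was at 1176 ± 21.2 CPM in undifferentiated cells and 1883 ± 137 with MIZ. Fbln5 had fallen with vehicle from 119 ± 6.65 to 9.39 ± 2.01 CPM. At 121 ± 8.54 CPM with MIZ, Fbln5 did not pass against undifferentiated cells (log2 fold change 0.02, adjusted p = 0.856). Vwf and Mfge8 fell by 0.79 and 0.42. Vwf was low in both differentiated groups, at 3.08 ± 0.06 CPM with vehicle and 1.82 ± 0.68 with MIZ. In undifferentiated cells it was at 64.8 ± 11.2 CPM. Against undifferentiated cells the ligand list had 7 higher and 12 lower with MIZ (33.7% and 33.3% of all genes). Exons of Lims2, Cd81, Cd151, Tspan4, Bcam, Sspn, Col15a1, Nid2, Tnc and Itgb3bp overlap another gene's, and reads from the pairs cannot be told apart where strand was not used.

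Markers of other cells in the cultures were measured beside these results. The 9 endothelial markers summed to 61.4 to 65.8 CPM in undifferentiated, 91.5 to 112 CPM in vehicle and 175 to 191 CPM in MIZ libraries, while Pecam1 was at or below 0.682 CPM in all of them. Of the 9, 4 were at 1 CPM or more in undifferentiated cells and 2 in each differentiated group, so that few genes carry the sum, and Cdh5 was at 2.00, 2.04 and 1.88, 0.375, 0.601 and 0.378 and 0.566, 0.679 and 0.650 CPM in the 3 groups. The 7 Schwann cell markers summed to 56.9 to 63.1, 40.4 to 42.8 and 66.7 to 94.7 CPM. The 8 skeletal muscle markers summed to at most 10.9 CPM, and the 5 platelet and megakaryocyte markers to at most 11.0 CPM, with Gp9 at 0 counts in all libraries. The part of these markers in the integrin and laminin differences was not tested.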

How the data were processed

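RNAseq libraries were prepared from total RNA after ribosomal RNA depletion, and the methods also name poly-A selection of mRNA. The authors trimmed paired reads with Trim Galore 0.6.7, aligned them to GRCm38 (mm10) and deposited raw counts per gene, 1 table per library. The methods name the gene counting of STAR and the labels HTSeq, and the annotation release and strand setting are not given in the sources used here.

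Counts were analysed in R 4.3.3 with edgeR 4.0.16 (TMM, quasi-likelihood), with genes of at least 5 counts in at least 3 libraries kept (17173 tested, 15112 left out) and a biological coefficient of variation of 0.0806. Symbols matched 32158 of 32285 identifiers. Exon lengths and overlaps came from GENCODE M21 on GRCm38. Promoter sequences are RefSeq's (GRCm38.p6). Members, lists and the naming rule were chosen with earlier results of these data known. All members may be named, with values per library from 1 CPM. Per list, genes past the threshold with a mean of 5 CPM or more in any group may be named. Of these, the genes that rose most (at most 3) and fell most (at most 3) are given. Ratios had 0.5 counts added to each gene. Scripts were tested on simulated data. Other normalizations and filters, DESeq2 1.42.0, a replicate block, fits of 6 libraries and fits without each library were tried. Same-numbered libraries did not deviate together (9 pairs, r from -0.0447 to 0.063), so no pairing was used. Python 3.11.15 with matplotlib 3.10.9 drew the plots. Values of 1 member are not reported here, although it is counted among the members.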

Additional observations from a re-analysis of the deposited data

How the results depend on the processing

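The counts of members called higher or lower stayed within 1.5 times under every alternative (MIZ against vehicle 14 to 18 higher and 12 to 14 lower, vehicle against undifferentiated 12 to 13 and 18 to 19, MIZ against undifferentiated 14 to 17 and 11 to 13), and the log2 ratios kept their sign. Of 1833 values of single members under alternatives, 1781 kept direction and call, 19 lost and 32 gained a call and 1 reversed: Itgal, vehicle against undifferentiated, went from 0.06 to -0.97 without vehicle replicate 1, the lowest of its values with 1 library left out, of which the highest was 0.45. Calls changed in 15 of 108 member comparisons. Scaling by library size only moved the median log2 fold change of all genes from 0.02 to 0.16 for MIZ against vehicle and from -0.08 to -0.25 for vehicle against undifferentiated, and there Itga10 (0.46), Itga2b (0.49), Itgal (1.20) and Itgb2 (0.47) passed in the first of these comparisons. A replicate block also made Itga2b (0.36), Itgal (1.21) and Itgb2 (0.33) pass, raising the members higher with MIZ from 14 to 17, but same-numbered libraries share only a number (r from -0.0447 to 0.063, other pairs -0.0544 to 0.0681). In MIZ against vehicle, Itgam (-0.50) and Itgb3 (-0.39) passed without vehicle replicate 3, Itga2b (0.46) without MIZ replicate 1 and Itgb2 (0.43) without MIZ replicate 3. In MIZ against undifferentiated, Itga2b lost its call without undifferentiated replicate 1 or 2 or MIZ replicate 1 or 3 (-0.40 to -0.28), Lamb2 gained one without vehicle replicate 1 or 3 or MIZ replicate 1 and with upper-quartile scaling, library size only, filterByExpr or only the 6 libraries compared (-0.19 to -0.15), and Itgal gained one without any 1 vehicle library (1.12), with no filter or with only the 6 libraries (1.11). Itga5 gained one in vehicle against undifferentiated with only the 6 libraries (0.17), and with no filter Itgal (1.05) and Itgb2 (0.33) passed in MIZ against vehicle. The cause was not tested. Members under 1 CPM (Itgb7, Itgb6, Itgb2l) are limited by depth.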
